A study of Mus musculus with 35 samples.

Results

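Genes for the synapse and for electrical excitability of neurons were followed through postnatal development of the mouse retina by their histone marks. The group holds 40 genes, chosen by name, of 16484 protein-coding genes whose start could be placed on the mm9 genome used for the peak lists. By role, 16 act in synaptic vesicles and transmitter release, 7 are scaffold or adhesion proteins of the synapse, 7 are subunits of transmitter receptors, 8 are voltage-gated channel subunits and 2 are calmodulin-dependent kinases. Chromatin immunoprecipitation followed by sequencing (ChIP-seq) was run on whole retinae, and 27 libraries had a list of called regions. Wild-type retinae at postnatal day (P) 0, P14 and P21 gave 2 libraries per stage for each of H3K4me3, H3K27Ac and H3K27me3. Wild-type retinae at P12 gave 1 library for H3K4me3, 1 for H3K27Ac and 2 for H3K27me3, and Brg1-deficient retinae at P12 (genotype BRG1 -/- in the labels) gave 1, 2 and 1. In the study the deletion was made with Chx10-Cre in Brg1 Lox/Lox mice. That transgene is active in retinal progenitors in a mosaic pattern, so such retinae keep stripes of wild-type cells. For ChIP-seq the study favoured animals with small eyes, in which Cre was more widely active, to lower the share of wild-type cells. The antibody against H3K27me3 carried another label at P12 than at P0, P14 and P21, so for this mark the P12 libraries are given beside the other stages with no comparison between them. A last library, from P0 retinae with the BRG-FLAG genotype, was precipitated for FLAG-tagged Brg1, the ATPase of the SWI/SNF chromatin remodelling complex. No label says how many animals a library held or that replicates came from separate animals, so p-values here measure the spread between libraries.

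Transmitter is released when SNARE proteins on the vesicle (Vamp1, Vamp2) pair with SNARE proteins on the plasma membrane (Snap25, Stx1a, Stx3), under the control of complexins and of the calcium sensors Syt1 and Syt2. Photoreceptors and bipolar cells of the retina release from ribbon synapses, which use Stx3 and the complexins Cplx3 and Cplx4, whereas amacrine cells use the conventional forms. H3K4me3 marks the starts of genes that are transcribed or ready to be, H3K27Ac marks active promoters and enhancers, and H3K27me3 is laid down by Polycomb complexes at silenced genes. A start with both H3K4me3 and H3K27me3 is called bivalent.

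The promoters of 4 members are shown because the H3K27me3 results turn on such genes: Sv2b, Stx3 and Sv2a had an H3K27me3 island at P0 and at no later stage, and Grin1 had an island in every library. The sequences are from RefSeq on GRCm38.p6 and hold 250 bases before and 50 after the start. They are Sv2b at chr7:75309213-75309512, minus strand, Stx3 at chr19:11819354-11819653, minus strand, Sv2a at chr3:96180977-96181276, plus strand, and Grin1 at chr2:25319138-25319437, minus strand. Capitals mark TAATCC, on either strand, in Sv2b and Stx3, and every CG in Sv2a and Grin1.
Sv2b: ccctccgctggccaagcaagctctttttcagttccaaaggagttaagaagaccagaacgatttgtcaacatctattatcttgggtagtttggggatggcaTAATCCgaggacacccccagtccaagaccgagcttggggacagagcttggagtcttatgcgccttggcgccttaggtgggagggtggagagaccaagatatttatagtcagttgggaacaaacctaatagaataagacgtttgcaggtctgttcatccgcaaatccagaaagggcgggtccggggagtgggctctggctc
Stx3: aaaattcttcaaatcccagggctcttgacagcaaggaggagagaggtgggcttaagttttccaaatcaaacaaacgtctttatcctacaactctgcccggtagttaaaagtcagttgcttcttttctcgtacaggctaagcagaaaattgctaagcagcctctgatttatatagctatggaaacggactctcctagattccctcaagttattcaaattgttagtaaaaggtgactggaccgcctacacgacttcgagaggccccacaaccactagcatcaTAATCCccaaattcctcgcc
Sv2a: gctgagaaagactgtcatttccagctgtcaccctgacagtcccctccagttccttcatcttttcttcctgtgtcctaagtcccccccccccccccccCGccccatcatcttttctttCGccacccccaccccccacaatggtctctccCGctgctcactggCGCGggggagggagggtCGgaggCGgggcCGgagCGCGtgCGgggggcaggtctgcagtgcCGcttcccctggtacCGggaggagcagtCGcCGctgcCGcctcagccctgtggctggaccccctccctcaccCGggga
Grin1: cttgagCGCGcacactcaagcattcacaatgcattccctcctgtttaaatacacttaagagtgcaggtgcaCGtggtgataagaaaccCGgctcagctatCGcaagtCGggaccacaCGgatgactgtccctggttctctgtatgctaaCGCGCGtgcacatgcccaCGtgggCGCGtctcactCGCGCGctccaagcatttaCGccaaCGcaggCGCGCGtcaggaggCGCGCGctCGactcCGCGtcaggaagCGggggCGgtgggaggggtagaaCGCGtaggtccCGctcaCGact
The letters TAATCC are the core recognised by the photoreceptor homeodomain factor Crx. They occurred on either strand in 5 of the 28 members found in the promoter table (Stx3, Sv2b, Syp, Dlg4 and Gabrr2) and in 6.43% of all 16472 promoters of this length. TATAAA was found in 2 of the 28 (Stx3 and Sv2b) and in 13.4% of all promoters, and CAGCTG, an E-box, in 8 and in 15.2%. None of the 3 motifs contains another, and a match describes the window only. Of the 4 promoters shown, which were chosen by their islands, Sv2b held 10 CG, Stx3 8, Sv2a 17 and Grin1 33. Members with an H3K27me3 island in both P0 libraries had a median of 25 CG (14 members), and all such genes had 17. The other 12 members, Snap25, Cplx4 and Kcnv2 among them, were not in the promoter table.

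A member was given the height of the highest peak with any base within 1 kb of its start, where height is the fold enrichment over background at the peak summit, and 0 where no peak was listed. To set libraries side by side, heights were divided by a factor for each library, taken over genes with a peak in every library of the mark. The number of reads is unknown from the lists, so a gene without a peak may have a signal too weak for its library, and peaks per library ranged from 17433 to 50005 for H3K27Ac and from 18534 to 24124 for H3K4me3. Of all 16484 starts, 60.8% and 61.3% lay within 1 kb of a peak in the 2 P0 H3K4me3 libraries, against 6.09% and 6.55% when the starts were moved by 50 kb. The starts had been placed with these same libraries, so a high share there was built in. In the P21 H3K4me3 libraries, which were not used for placing, the shares were 60.6% and 58.2%, against 7.04% and 5.57% after the move. Of the tissue markers with a placed start, H3K4me3 was at 8 of 10 retina markers in both P21 libraries, at 1 of 6 lens markers, at 0 of 3 for pigment epithelium, at 0 of 4 for blood and at 0 of 4 for muscle and liver. H3K27Ac was at 0 of these 4 muscle and liver markers at P0 and at 1 of 4 at P12, P14 and P21. In whole tissue, fewer cells with a mark and less of the mark per cell cannot be told apart. The peaks at Smarca4, which encodes Brg1, lie at its start and check nothing about the deletion.

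At P0 the starts of the synapse and excitability genes mostly carried H3K4me3, and about as many carried H3K27me3 as lacked it. H3K4me3 was listed in both P0 libraries at 30 of 40 members and at 60.7% of all genes. By role these were 14 of the 16 vesicle and release genes, 5 of 7 scaffold and adhesion genes, 5 of 7 receptor genes, 5 of 8 channel genes and 1 of the 2 kinase genes. H3K27Ac was listed in both P0 libraries at 21 members (48.1% of all genes). An H3K27me3 island was listed in both P0 libraries at 21 members, against 17.7% of all genes. At 19 members the start was bivalent in both P0 libraries (14% of all genes). The islands covered 9 vesicle and release genes, 3 scaffold and adhesion genes, 3 receptor genes, 5 channel genes and the kinase gene Camk2b. Related genes outside the group carried them too. An island was in both P0 libraries at 34 of 70 other synapse genes and at 28 of 39 other excitability genes.

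Later, islands were absent from 4 members, all of them vesicle and release genes. These were Snap25, a plasma membrane SNARE, Stx3, the syntaxin of ribbon synapses, and Sv2a and Sv2b, membrane glycoproteins of synaptic vesicles. Each had an island in both P0 libraries and in none of the 4 libraries of P14 and P21, and none had one in the P12 libraries of either genotype. Of all genes with an island in both P0 libraries, 13.3% were in none of the P14 and P21 libraries. By contrast, 13 members had an island in all 6 libraries of P0, P14 and P21 and also in all 3 of P12, and 66.7% of all genes with a P0 island had one in every P14 and P21 library. These 13 were Cplx1, Syn2 and Syt2 among the vesicle and release genes, the presynaptic adhesion gene Nrxn2 and the scaffold gene Shank2, the glutamate receptor genes Gria2, Grin1 and Grin2b, the channel genes Cacna1a, Cacna1b, Kcna1 and Kcnc1, and Camk2b.

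**Figure D1:**
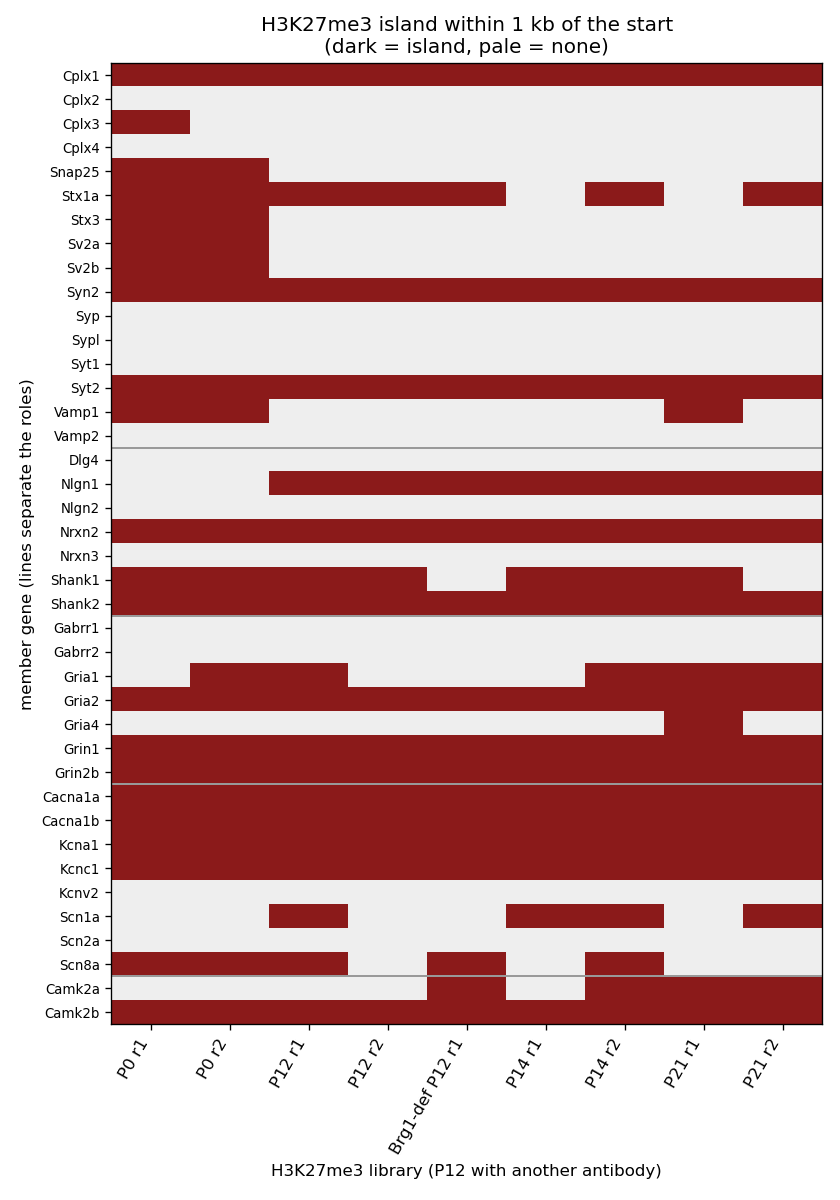
Presence (red) or absence (grey) of an H3K27me3 island within 1 kb of the start of each of the 40 members (rows, grouped by role) in each of 9 libraries (columns, ordered by postnatal day). Snap25, Stx3, Sv2a and Sv2b are red in the 2 P0 libraries only, whereas 13 members are red in all 9.

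The remaining 4 members with a P0 island were mixed. Stx1a, the plasma membrane syntaxin of conventional synapses, had an island in replicate 2 but not replicate 1 of both P14 and P21, and in all 3 P12 libraries. Vamp1, a vesicle SNARE, had one in replicate 1 of P21 only. The scaffold gene Shank1 lacked one only in replicate 2 of P21 and in the Brg1-deficient library, and the sodium channel gene Scn8a had one in replicate 2 of P14, replicate 1 of wild-type P12 and the Brg1-deficient library. Nlgn1, a postsynaptic adhesion gene, was the single member with no island at P0 and one in every P14 and P21 library (1.78% of all genes), and it had one in all 3 P12 libraries. In all, 16 members had an island in both P14 libraries (17% of all genes) and 16 in both P21 libraries (18.3%), and 13 members had none in any of the 9 libraries. Islands covered 96.6 Mb and 114 Mb at P0, 127 Mb and 213 Mb at P14, and 142 Mb and 152 Mb at P21. An island was at 19.2% and 23.15% of all starts at P0, 18.35% and 25.3% at P14, and 20.0% and 22.0% at P21. The part of detection in the 4 members without later islands was not tested. The P14 replicate 2 list holds no island on the X chromosome, which touches only Syp.

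H3K4me3 appeared at the starts of Cplx4, a complexin of ribbon synapses, and Kcnv2, a potassium channel subunit of photoreceptors, between P0 and P14. Scaled heights at Cplx4 were 0 in both P0 libraries, 35.1 and 26.1 at P14, and 28.5 and 40.03 at P21. At Kcnv2 they were 0 in both P0 libraries, 23.0 and 37.3 at P14, and 48.7 and 26.8 at P21. The groups did not overlap for either gene, and both were also marked at P12, with 21.8 at Cplx4 and 44.9 at Kcnv2 in the wild-type library. In limma on log2(height + pseudocount) over all 10134 genes tested, Cplx4 rose with a Benjamini-Hochberg adjusted p of 0.00133 at P14 and 0.000543 at P21, and Kcnv2 with 0.0025 and 0.000927. No fold is given, since both genes were listed at 0 at P0. Both kept these calls in every alternative in which they were tested. Kcnv2 was not tested with the summit required within 1 kb of the start, since too few libraries had such a peak. P14 and P21 were compared with the same P0 libraries, and the folds and p-values come from a fit of the 6 libraries of P0, P14 and P21, whose scaling differs slightly from that of the printed heights.

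H3K4me3 was listed in both P21 libraries at 35 members (58.2% of all genes), and at 30 members in every one of the 8 libraries. Besides Cplx4 and Kcnv2, a peak was listed in neither P0 library and in both P21 libraries at Gabrr1, Gabrr2 and Camk2a, which makes 5 of 40 members (0.34% of all genes). Gabrr1 and Gabrr2 encode the rho subunits of the GABA receptors of bipolar cells. Their peaks were low: Gabrr1 had 5.33 and 6.59 at P14 and 4.20 and 7.15 at P21, and Gabrr2 had 0 and 0, then 4.87 and 9.37. Camk2a, a kinase of the postsynaptic density, had 6.99 and 4.62 at P14 and 5.26 and 7.32 at P21. None of these 3 passed the threshold at P21 (limma, Benjamini-Hochberg adjusted p of 0.0981 for Gabrr1, 0.0592 for Gabrr2 and 0.0713 for Camk2a). With a pseudocount of 1, which weighs low peaks more, all 3 passed (limma, adjusted p = 0.00126, 0.000984 and 0.000857). In the P12 wild-type library Gabrr1 had 4.60, Camk2a 4.18 and Gabrr2 no peak. The promoter of Gabrr1 is shown because it lies at such a late, low peak, with each CG in capitals (RefSeq, GRCm38.p6, chr4:33132306-33132605, plus strand).
Gabrr1: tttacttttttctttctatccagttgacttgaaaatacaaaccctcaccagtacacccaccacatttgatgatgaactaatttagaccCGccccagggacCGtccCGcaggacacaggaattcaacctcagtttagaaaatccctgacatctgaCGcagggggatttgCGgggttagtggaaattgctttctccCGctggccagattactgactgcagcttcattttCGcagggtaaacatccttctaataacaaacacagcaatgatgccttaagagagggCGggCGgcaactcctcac
It held 9 CG. Over the 4 members of the promoter table without H3K4me3 in either P0 library the median was 5.5, and over the 23 with H3K4me3 in both it was 19. The same medians over all genes were 3 and 21.

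**Figure D2:**
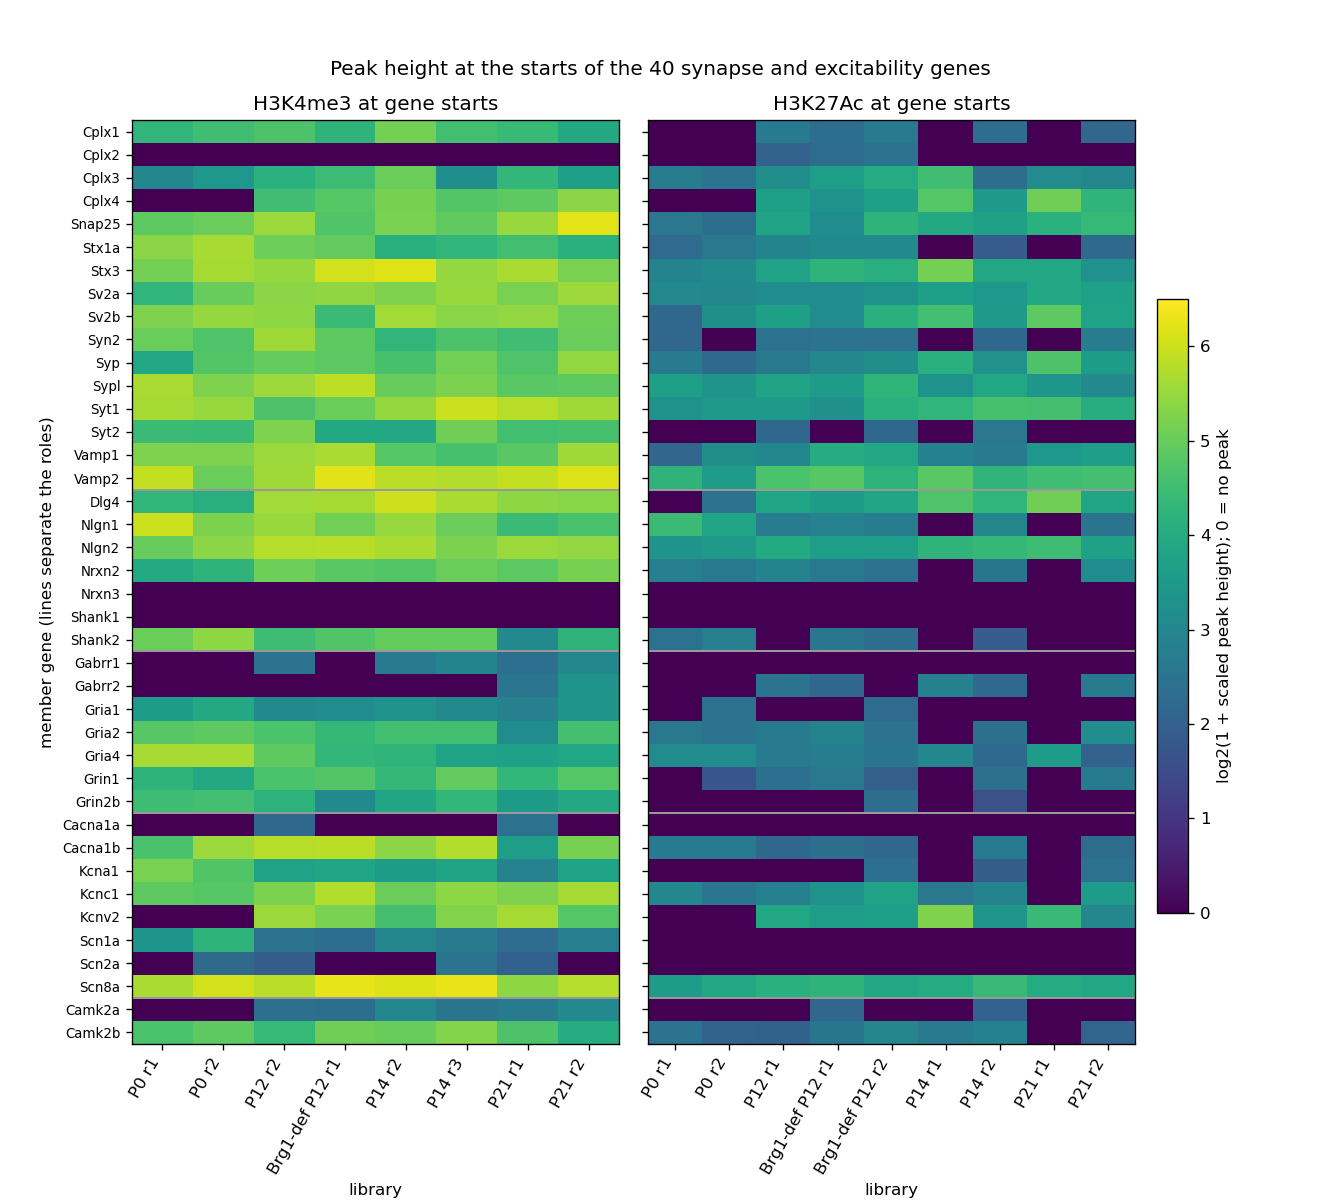
Scaled peak height, as log2(1 + height), within 1 kb of the start of the 40 members (rows, grouped by role) for H3K4me3 in 8 libraries and H3K27Ac in 9 libraries (columns, ordered by postnatal day), with the darkest colour for no peak. Cplx4 and Kcnv2 are dark in the P0 libraries of both marks and marked from P12 on, and Cplx2, Nrxn3 and Shank1 have no H3K4me3 at the start in any library.

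Dlg4 encodes PSD-95, a scaffold of the postsynaptic density that is also found in photoreceptor terminals. Its H3K4me3 rose to P14, with scaled heights of 18.7 and 16.2 at P0 and 63.3 and 50.3 at P14, a log2 change of 1.35 ± 0.26 (SE, 2 libraries per stage, adjusted p = 0.0163 in limma with Benjamini-Hochberg adjustment). At P21 the heights were 41.2 and 39.5 and the log2 difference from P0 was 0.93 ± 0.26 (limma, adjusted p = 0.0501). The P14 and P0 libraries did not overlap. The start of Acadvl lies 1775 bp away, and in replicate 1 of P21 the highest peak in the window lies on its side, at chr11:69826409-69829869 (mm9), with a deposited height of 66.9 where the peak over Dlg4, chr11:69830192-69833636, had 59.6. The P14 call was lost without replicate 2 of P0, without replicate 2 of P14 and without scaling between libraries (adjusted p = 0.808 in limma without scaling). With single libraries left out, the log2 change ranged from 1.205 to 1.493. Dlg4 was not tested with the summit required within 1 kb of the start, since too few libraries had such a peak.
The promoter of Dlg4 (chr11:70016953-70017252, plus strand, RefSeq, GRCm38.p6, the reverse complement of TAATCC in capitals) is shown because both the height and the length of its peak differed between stages.
Dlg4: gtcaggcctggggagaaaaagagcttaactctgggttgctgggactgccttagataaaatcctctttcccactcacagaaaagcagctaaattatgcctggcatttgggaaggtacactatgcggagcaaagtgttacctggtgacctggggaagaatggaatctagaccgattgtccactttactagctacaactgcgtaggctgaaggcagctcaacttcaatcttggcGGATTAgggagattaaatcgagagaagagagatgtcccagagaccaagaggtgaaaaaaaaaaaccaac

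H3K4me3 fell by P21 at 4 members, 1 from each of 4 roles. Gria4, an AMPA receptor subunit, had 49.4 and 48.9 at P0, 18.0 and 12.8 at P14, and 12.2 and 13.8 at P21. Its log2 change was -1.31 ± 0.26 at P14 (adjusted p = 0.0198) and -1.45 ± 0.26 at P21 (adjusted p = 0.00748, both limma with Benjamini-Hochberg adjustment), and it had 28.4 in the P12 wild-type library, between P0 and P14. Shank2, a postsynaptic scaffold, had 32.0 and 40.8 at P0 and 7.64 and 17.7 at P21 (log2 change -1.15 ± 0.29, adjusted p = 0.0361, limma), after 30.3 and 30.2 at P14. Kcna1, a delayed rectifier potassium channel, had 35.9 and 25.7 at P0 and 6.38 and 12.6 at P21 (-1.17 ± 0.28, adjusted p = 0.0292, limma), after 11.03 and 12.9 at P14. Stx1a had 40.3 and 48.9 at P0 and 22.1 and 16.6 at P21 (-0.95 ± 0.26, adjusted p = 0.0491, limma), after 16.2 and 18.3 at P14. In each of the 4 genes both P21 libraries lay below both P0 libraries. The 4 calls were lost without scaling and without single libraries. The call of Stx1a was also lost with a pseudocount of 1, with the outermost start of the gene and with the summit required within 1 kb. Shank2 lost its call with the summit so placed, and Kcna1 was not tested in that setting. Without scaling the log2 changes were -1.44 for Gria4, -1.21 for Kcna1, -1.19 for Shank2 and -0.90 for Stx1a, with adjusted p between 0.281 and 0.909 (limma). The adjusted p without replicate 1 of P21 was 0.0621 for Gria4, 0.213 for Kcna1, 0.257 for Shank2 and 0.129 for Stx1a. Shank2 also lost its call without replicate 2 of P0 (0.151), Kcna1 without replicate 1 of P0 (0.141) or replicate 2 of P21 (0.0543), and Stx1a without either replicate of P0 (0.0952 and 0.3) or replicate 2 of P21 (0.254). The P14 call of Gria4 was lost without any 1 of the 4 libraries compared, without scaling and with the summit required within 1 kb.

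Over the 36 members with a peak in at least 2 of the 6 libraries, 3 rose and 1 fell at P14, where 1.92% of all genes changed. At P21, 2 rose (0.868% of all genes) and 4 fell (5.36%). Without scaling between libraries, 2 rose and 0 fell at each stage. With a pseudocount of 1 in place of 7.46, 6 rose and 3 fell at P21, so which direction held more calls turned with this choice. Between P14 and P21 no member passed (limma, Benjamini-Hochberg adjusted p of 0.739 or more), 5 had an unadjusted p under 0.05, and 1 of all genes changed. The median log2 difference of the members was 0.19 at P14 and 0.00 at P21, and that of all genes -0.03 and -0.08. With only genes that had a peak at both stages, the medians at P21 were -0.08 for 31 members and -0.07 for all. Both P21 libraries were above both P0 libraries at 14 members (14.8% of all genes) and below at 10 (31.1%). Snap25 was among those above, with 28.4 and 31.4 at P0 and 44.5 and 74.3 at P21 (adjusted p = 0.124, limma).

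**Figure D3:**
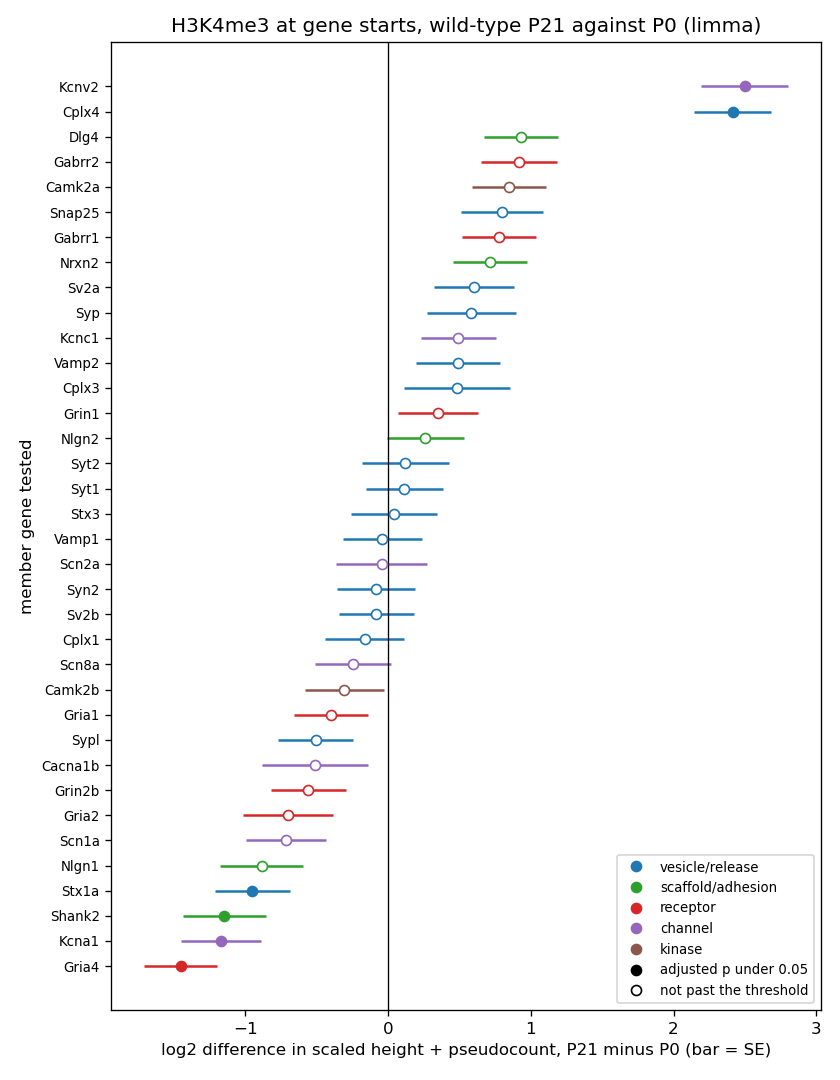
Difference in H3K4me3 between P21 and P0 (x axis, log2 of scaled height plus a pseudocount, points with their standard errors, 2 libraries per stage) for the 36 members tested, coloured by role and filled where the adjusted p was under 0.05. Cplx4 and Kcnv2 lie farthest to the right and Gria4, Kcna1, Shank2 and Stx1a are the filled points on the left.

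Lengths of H3K4me3 peaks were compared by the overlap of libraries, with no other test. Where a window held several peaks, their lengths were added. Of the 30 members with a peak in all 4 libraries of P0 and P21, both P21 peaks were longer than both P0 peaks at 11 (18% of all genes) and shorter at 6 (24.7%). At Stx3 the peak was 2161 and 2701 bp at P0, 3564 and 4767 bp at P14, and 9914 and 5480 bp at P21. At Cplx3, the other complexin of ribbon synapses, it was 1134 and 1364 bp at P0 and 5171 and 2527 bp at P21. At Dlg4 it was 1598 and 1480 bp and then 6906 and 3494 bp. The 6906 bp, of replicate 1, add the peak on the side of Acadvl to that over Dlg4. At Nlgn1, where an H3K27me3 island appeared, the length was 4732 and 5402 bp at P0 and 3150 and 2219 bp at P21. The 2219 bp are also a sum of separate peaks. Over all genes the median length was 1702 and 1840 bp at P0 and 1963 and 1611 bp at P21, so replicate 1 of P21 had longer peaks in general and replicate 2 did not.

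Cplx2, Nrxn3 and Shank1, 3 members in all, had no H3K4me3 within 1 kb of the start used in any of 8 libraries. Cplx2 is a complexin of conventional synapses, Nrxn3 a presynaptic adhesion protein and Shank1 a postsynaptic scaffold. In each, the highest peak lay inside the gene. In Cplx2 it was about 69 kb from the start in all libraries, at chr13:54472425-54474245 (mm9) in replicate 1 of P0, with deposited heights of 20.97 and 19.3 at P0 and 12.2 and 6.90 at P21. In Nrxn3 it was 915.5 kb in at P0 (18.4 and 20.7) and at P21 6.43 and 4.46. In Shank1 it was 27.5 or 51.0 kb in at P0, with heights of 28.0 and 33.9. The start used is the most upstream one listed, so for these genes the values at the start do not describe their inner promoters. Other members had inner H3K4me3 peaks too, which the values at the start leave out. Cacna1a and Camk2a, without a peak at the start at P0, had inner ones of 27.3 and 36.4 and of 8.81 and 5.29. Scn1a had 27.3 and 26.0 inside at P0.

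H3K27Ac at the starts was higher after P0 at several vesicle genes, but no member passed the threshold among all genes. Of 29 members tested, 0 were called at P14, at P21 or between the latter stages (limma, Benjamini-Hochberg adjustment), as were 0 of all 9241 genes. At an unadjusted p under 0.05 there were 6 members at P14 (7.29% of all genes), 8 at P21 (10.3%) and 0 between P14 and P21 (1.05%). The median log2 difference of members was 0.41 at P14 and 0.45 at P21, and that of all genes -0.15 and -0.24. With only genes that had a peak at both stages, it was 0.27 and 0.31 for members (24 and 23 genes) and -0.17 and -0.22 for all. Both P21 libraries lay above both P0 libraries at 13 members (15.6% of all genes) and below at 4 (28%), which were Stx1a, Nlgn1, Shank2 and Cacna1b. Of the 13 above, 10 were vesicle and release genes.

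Cplx4 had H3K27Ac heights of 0 in both P0 libraries, 26.7 and 10.2 at P14 and 33.4 and 17.9 at P21, and Kcnv2 had 0 and 0, then 36.7 and 9.57, then 19.9 and 6.99. They were the 2 members with a peak in neither P0 library and in both P21 libraries (0.704% of all genes). Snap25 had 4.99 and 4.12 at P0, 14.3 and 12.2 at P14 and 16.8 and 19.5 at P21, with no overlap between P0 and either later stage. Its log2 difference at P21 was 1.41 ± 0.33 (adjusted p = 0.257, limma). Syp, which encodes synaptophysin of the vesicle membrane, had 5.33 and 3.76 at P0 and 24.7 and 10.8 at P21 (1.31 ± 0.47, adjusted p = 0.418, limma). When the fit was limited to genes with a peak in every library, 13 members were tested and Snap25 (adjusted p = 0.0145) and Syp (adjusted p = 0.0447) passed. Sv2b had 3.55 and 8.38 at P0 and 28.8 and 12.5 at P21, and Dlg4 had 0 and 4.55, then 33.2 and 13.2. In the other direction, Nlgn1 had 20.5 and 13.2 at P0, 0 and 6.72 at P14, and 0 and 4.69 at P21 (-1.87 ± 0.64, adjusted p = 0.399, limma). Of the genes named here as higher after P0, Kcnv2 and Sv2b differed by more than 2-fold between the 2 libraries of both later stages. Cplx4 did so at P14, and Syp and Dlg4 at P21, each time with replicate 1 higher. A peak was listed in all 9 libraries at 13 members. The promoter of Syp (chrX:7638330-7638629, plus strand, RefSeq, GRCm38.p6, the reverse complement of TAATCC in capitals) is shown as that of a vesicle gene that had no H3K27me3 island at any stage.
Syp: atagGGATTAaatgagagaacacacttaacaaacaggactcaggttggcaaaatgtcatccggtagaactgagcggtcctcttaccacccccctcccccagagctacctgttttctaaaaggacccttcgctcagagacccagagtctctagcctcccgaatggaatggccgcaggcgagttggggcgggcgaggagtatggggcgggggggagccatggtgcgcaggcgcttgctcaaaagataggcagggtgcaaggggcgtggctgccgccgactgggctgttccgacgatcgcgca

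Inside the genes, past 1 kb from the start, H3K27Ac peaks were more numerous after P0 in a few vesicle genes. The body of Sv2b held 0 and 2 peaks at P0, 35 at P12 in wild-type retinae, 11 and 33 at P14, and 19 and 36 at P21. That of Snap25 held 0 and 1 at P0, 18 at P12, 5 and 15 at P14, and 14 and 13 at P21. That of Stx3 held 0 and 0 at P0, 7 at P12, 5 and 4 at P14, and 1 and 9 at P21. In each of the 3 genes every later library held more peaks than both P0 libraries. Replicate 1 had the shorter list at both P14 and P21. Both P21 libraries held more peaks than both P0 libraries at 9 of 33 members (19.8% of all genes) and fewer at 1, Shank2 (5.06%), with 4 and 10 at P0 and 0 and 3 at P21. The 2 H3K27Ac lists held 17588 and 29304 peaks at P0 and 18718 and 45833 at P21, and the members held 27 and 85 body peaks in all at P0 and 72 and 150 at P21. With the same number of peaks taken from each library, an alternative added after seeing the data, the bodies of 5 of 26 members held more at P21 (25.4% of all genes) and 6 fewer (13.8%). Sv2b then held 0 and 1 at P0 and 19 and 9 at P21, Snap25 0 and 0, then 13 and 4, and Stx3 0 and 0, then 1 and 2.

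**Figure D4:**
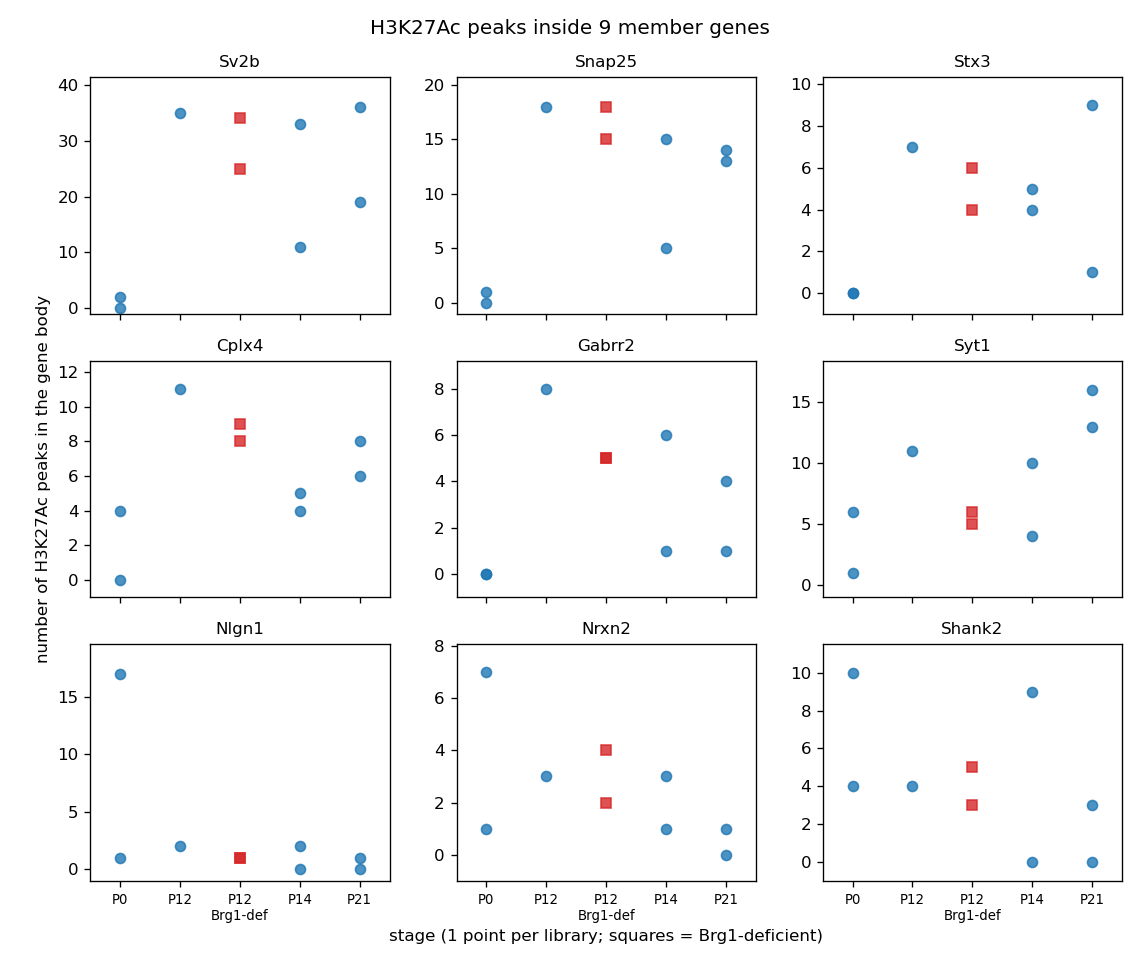
Number of H3K27Ac peaks in the body of 9 members (y axis, panels on their own scales) by stage (x axis), with 1 point per library, circles for wild-type and squares for Brg1-deficient retinae. Sv2b goes from 0 and 2 peaks at P0 to 19 and 36 at P21, whereas Shank2 goes from 4 and 10 to 0 and 3.

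By the highest body peak, 3 of the 29 members tested rose at P21 and none fell (15% and 3.77% of all genes), and 1 rose at P14 (7.49%). With the same number of peaks taken from each library, 2 rose at P21 (Snap25 and Stx3) and 4 fell (Cplx2, Nrxn2, Scn8a and Syt2). Stx3 had heights of 0 and 0 at P0, 10.8 and 5.48 at P14, and 16.2 and 15.6 at P21, with adjusted p = 0.0475 at P14 and 0.027 at P21 (limma, Benjamini-Hochberg). Sypl, a relative of synaptophysin, had 0 in both P0 and both P14 libraries and 7.04 and 4.39 at P21 (adjusted p = 0.0347, limma). Gabrr2 had 0 and 0 at P0, 6.93 and 4.44 at P14, and 5.60 and 4.60 at P21 (adjusted p = 0.0401, limma). All 3 were listed at 0 in both P0 libraries, so no fold is given. Their calls depended on single libraries: without replicate 1 or replicate 2 of P0, or without replicate 1 of P21, no member passed at P21. For Stx3 the adjusted p at P21 was then 0.243, 0.155 and 0.124. At P14 Stx3 was also not called without replicate 1 of P14 (0.139) or replicate 1 of P21 (0.0701), and Gabrr2 lost its P21 call without replicate 2 of P21 (0.0634). Both P21 libraries lay above both P0 libraries at 9 members (32.8% of all genes) and below at 8 (20.2%), Nrxn2, Gria2 and Cacna1a among them. Without scaling between libraries, Sypl (0.0598) and Gabrr2 (0.0684) did not pass. The median log2 difference at P21 was 0.21 for members and 0.59 for all genes, and -0.05 and -0.11 over genes with a body peak at both stages. Ckm, the muscle creatine kinase among the muscle and liver markers, rose in bodies too, by a log2 change of 1.75 at P14 (adjusted p = 0.0486) and 1.84 at P21 (adjusted p = 0.0294, both limma). The part of other tissue in the members' body values was not tested.

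FLAG-tagged Brg1 at P0 was listed at the start of 29 of 40 members and of 52.4% of all genes. By role these were 15 of 16 vesicle and release genes, 5 of 7 scaffold and adhesion genes, 4 of 7 receptor genes, 4 of 8 channel genes and 1 of 2 kinase genes. Among starts with H3K4me3 in both P0 libraries, Brg1 was listed at 27 of 30 members and at 82.9% of all such genes, and among starts with an H3K27me3 island at 18 of 21 and at 63.1%. Of the 9 members without H3K4me3 in either P0 library, 2 had a Brg1 peak, and these were Cplx4 and Kcnv2. Each had a height of 4.09, a low value at percentile 14.4 of genes with a peak. The share over all genes without H3K4me3 at P0 was not taken, so this count is not read further. The highest peaks lay at Nlgn2, a postsynaptic adhesion gene of inhibitory synapses (14.6), and at Vamp2 (12.9), and the median over members with a peak was 5.91, against 5.86 over all genes with one. The bodies of Nrxn2 and Shank2 held 31 and 19 Brg1 peaks. There was 1 library, so these values have no replicate check.

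In Brg1-deficient retinae at P12, no member differed from wild-type in H3K27Ac by the test across all genes. The fit used all 9 H3K27Ac libraries, with 1 wild-type library at P12 whose spread was taken from the other groups. At the starts 0 of 34 members were called (limma, Benjamini-Hochberg adjusted p of 1), 1 had an unadjusted p under 0.05, and of all 9520 genes 0 were called and 75 had one. In bodies 0 of 30 members were called and 0 had an unadjusted p under 0.05, with 0 and 221 of all 4866 genes. No alternative called a member. Both Brg1-deficient libraries were above the wild-type library at 10 members (34.6% of all genes), below it at 6 (29.1%) and neither at 18. Those that were neither had a library on each side, or a tie where the wild-type and a Brg1-deficient library both lacked a peak. For body heights these counts were 9 (19.9%), 12 (45.2%) and 9.

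The 5 members that differed most at the start with both Brg1-deficient libraries on one side were Shank2, Vamp1, Gabrr2, Kcnc1 and Syt2. Shank2 had no peak in the wild-type library and 4.86 and 4.03 in the Brg1-deficient ones. Vamp1 had 7.21 in wild-type and 15.2 and 13.98 in Brg1-deficient retinae, a log2 difference of 0.76 ± 0.43 (SE). Kcnc1, a fast potassium channel, had 5.99 and then 8.96 and 12.4 (0.57 ± 0.76). Gabrr2 had 4.58 and then 3.62 and 0 (-0.70 ± 0.66), and Syt2 had 3.56 and then 0 and 3.49 (-0.52 ± 0.62). Only the difference at Shank2 had an unadjusted p under 0.05. The vesicle genes without later H3K27me3 had H3K27Ac in both genotypes: Snap25 had 12.9 in wild-type and 7.89 and 17.8 in Brg1-deficient retinae, Stx3 12.5 and then 17.8 and 15.8, Sv2a 7.81 and then 7.73 and 9.09, and Sv2b 11.9 and then 7.80 and 16.5. Cplx4 had 11.9 and then 9.01 and 11.6, and Kcnv2 13.5 and then 11.4 and 11.6. In Sv2b the body held 35 peaks in wild-type and 25 and 34 in Brg1-deficient retinae, and in Snap25 18 and then 15 and 18.

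**Figure D5:**
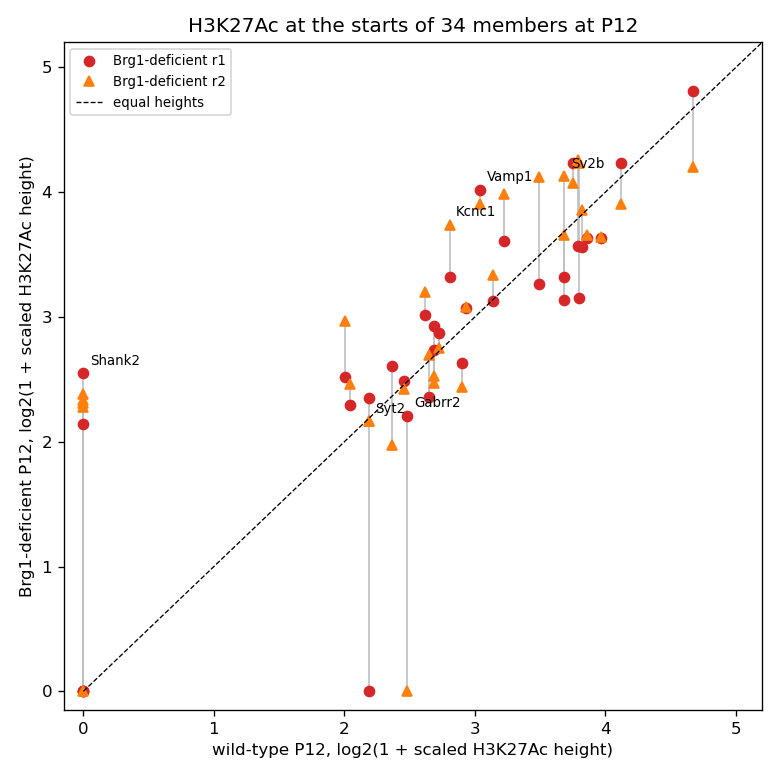
H3K27Ac at the starts of the members at P12, as log2(1 + scaled height), in the wild-type library (x axis) and in the 2 Brg1-deficient libraries (y axis, circles and triangles joined by a line for each gene). Points lie on both sides of equality, with both Brg1-deficient libraries higher at 10 members and lower at 6.

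For H3K4me3 at P12 there was 1 library per genotype, so differences have no replicate check. Of the 33 members with a peak in both, 2 were at least 2-fold lower in the Brg1-deficient library (2.39% of all genes) and 0 at least 2-fold higher (2.24%). These were Syt2, with deposited heights of 51.9 in wild-type and 13.5 in Brg1-deficient retinae (log2 difference after scaling -1.35), and Grin2b, with 24.8 and 7.10 (-1.21), whose start was placed on mm9 with less certainty. Sv2b followed with 57.8 and 19.4 (-0.98). The median log2 difference was 0.03 over members and 0.02 over all genes. Without scaling 7 members were at least 2-fold lower and none higher. Of 36 members with a peak in either library, 3 had it in the wild-type library alone (2.48% of all genes), Gabrr1 (6.52), Cacna1a (5.08) and Scn2a (3.94), each a low peak. The wild-type list held 22846 peaks and the Brg1-deficient list 19495. H3K27me3 islands were in both wild-type P12 libraries at 16 members (20% of all genes) and at 15 of them also in the Brg1-deficient library (18%). The exception was Shank1 (2.01% of all genes), and Camk2a had an island at P12 in the Brg1-deficient library only (2.32%). With the other antibody, Camk2a also had an island in both wild-type P21 libraries and in 1 of the 2 wild-type P14 libraries.

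Other genes of the same pathways were read from the same fits, and no difference between lists was tested. Of all genes, 0.868% rose and 5.36% fell in H3K4me3 at P21. Of 105 other synapse genes listed, 70 had a placed start and 65 were tested. Of these, 0 rose and 8 fell. Lrrtm1, a postsynaptic adhesion gene (log2 change -1.55), Gabra3, a GABA receptor subunit (-1.34), and Gad2, an enzyme of GABA synthesis (-1.12), changed most. Of 59 other excitability genes, 39 had a placed start and 36 were tested. Of these, 1 rose, Cacna1f, the calcium channel of photoreceptor synapses (1.78), and 3 fell: Cacnb3 (-1.88), Kcnc2 (-1.77) and Kcna6 (-0.95). The median log2 differences were -0.29 and -0.56, with -0.08 over all genes. At P14, 0 and 0 of the synapse genes and 1 and 1 of the excitability genes rose and fell, and 61 and 134 of all 10134 genes. H3K27Ac at starts called 0 genes of either list at either stage (limma). At P21 the unadjusted p was under 0.05 for 13 of 56 and 5 of 29 genes tested, and for 952 of all 9241. In bodies at P21, 7 of 42 synapse genes rose and 0 fell, where 601 of all 4004 genes rose and 151 fell. Nsf, the ATPase that takes SNARE complexes apart (2.75), Grm8 (2.31) and Grik5 (2.27) rose most. Of 24 excitability genes Cacnb2 rose (2.87) and 3 fell, Kcnk2 (-2.16), Kcnk1 (-1.67) and Hcn4 (-1.38). At P12 no gene of either list was called between genotypes, with 0 and 1 genes at an unadjusted p under 0.05 at starts and 4 and 1 in bodies. Among the retina markers, Pde6b (2.80), Nr2e3 (2.29) and Nrl (2.13), genes of rods, rose in H3K4me3 at P21, and Pax6 (-1.62) and Pou4f2 (-1.52), genes of progenitors or inner neurons and of ganglion cells, fell. The part that a changing share of cell types has in the members' values was not tested.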

How the data were processed

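ChIP-seq libraries of mouse retina were grouped by their labels. The submitters' processing notes name CASAVA, BWA 0.5.9-r26, Picard 1.65, SAMtools, R 2.14.0, MACS2 2.0.9, bedtools 2.17.0, SICER 1.1 and the mm9 build. Roles of the tools are not given in the sources used here. The authors deposited a peak list for each of the 18 Brg1-FLAG, H3K4me3 and H3K27Ac libraries, called per library. Heights are the deposited fold enrichment over background. The authors also deposited the −log10 p-value and −log10 q-value of each peak, used only to take equal numbers of peaks, and a deposited score, which was not used. For H3K27me3 the authors deposited islands, of which only positions were used, since the meaning of their whole-number score is not given. Peak lists hold no read counts, so no interval for counting error was given. 8 input samples were not analysed here.

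GRCm38 gene starts (RefSeq, most upstream) were moved to mm9 by the local offset that placed most coding starts within 5 Mb of the gene at P0 H3K4me3 peaks, and 16484 of 17286 genes were kept. The strand of 12 members was taken from general knowledge. The windows of Dlg4 and Shank1 overlap the window around a second gene's start. A gene's body began 1 kb past its start.

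Heights were compared with limma 3.58.1 (R 4.3.3) on log2(height + pseudocount), with Benjamini-Hochberg adjustment over all genes with a peak in at least 2 libraries and 0.05 as the threshold. The pseudocount was the 5th percentile of heights above 0: 7.46 for H3K4me3, 3.23 for H3K27Ac starts and 2.32 for bodies, or 3.44 and 2.71 in the P12 fits. The pseudocount shrinks the fold change of genes with low peaks. P0, P14 and P21 were fitted together, and P12 H3K27Ac with all 9 libraries. Lone-library H3K4me3 at P12 and H3K27me3 had no test. The fits were tested on simulated data. Alternatives were no scaling, a pseudocount of 1, a peak in every library, the summit within 1 kb, equal numbers of peaks, other starts (chosen after seeing the data), a replicate block and leaving out each library. Other steps used Python 3.11.15, pandas 2.3.3, numpy 2.4.6 and matplotlib 3.10.9.

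Members, lists and tests were chosen with earlier results of these data known. Named with all libraries were members past a threshold, with H3K4me3 at P21 but not P0, with a P0 island, or among the 5 with the largest P12 difference, and of other lists the 3 largest changes. Dlg4's promoter and other members were named after their values were seen.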

Additional observations from a re-analysis of the deposited data

How the results depend on the processing

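Alternatives were run for the counts and for the members called, and no called member reversed its direction in them. Medians did turn: over genes with a peak at both stages, the members' median log2 difference in bodies went from 0.26 to -0.35 at P14 and from 0.21 to -0.05 at P21, and for H3K4me3 at P21 from 0.00 to -0.08. Without scaling the members called for H3K4me3 numbered 2 at P14 (4 with it) and 2 at P21 (6), those for H3K27Ac bodies 2 (1) and 1 (3), and the members at least 2-fold lower at P12 numbered 7 (2). Scaling also moved the median over all genes, from -0.16 to -0.03 for H3K4me3 at P14 and from -0.49 to -0.24 for H3K27Ac at P21. With the summit in the window, H3K4me3 called 1 member at P14 and 2 at P21. A pseudocount of 1 called 6 members for H3K4me3 at P14 and 9 at P21 (6 up and 3 down), 1 member, Gabrr2, between P14 and P21 and 2 in bodies at P14. With a peak in every library, 2 members were called for H3K27Ac starts at P21 and 0 for bodies at P14 and at P21, where 5 members remained to be tested. With equal numbers of peaks, bodies gave 4 calls at P14 (2 up) and 6 at P21 (Snap25 and Stx3 up, and 4 down), and with only the 2 stages compared, 2 at P14. Leaving out 1 library gave 2 to 4 calls for H3K4me3 at P14, 2 to 7 at P21, 0 to 2 for bodies at P14 and 0 to 3 at P21. The replicate block raised the H3K4me3 calls at P21 to 12 (7 up and 5 down) and those of bodies at P14 to 2, and changed no other count. The deviations of same-numbered libraries correlated with r = 0.139 for H3K4me3 at P0 and P21, 0.0629 to 0.482 for H3K27Ac starts and 0.019 to 0.439 for bodies, and nothing in the labels ties the numbers to animals. For H3K4me3 the P14 libraries share only number 2 with P0, so no block was fitted there. Counts of Brg1 peaks and of H3K27me3 islands changed by less than 1.5 times.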
